A study of Caenorhabditis elegans with 2 samples.

Results

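The Hsp70 family genes of Caenorhabditis elegans were examined for peaks of the tagged transcription factor APTF-3 at their promoters. The 10 genes are hsp-70, F44E5.4, F44E5.5, F11F1.1, hsp-1, hsp-110, hsp-3, hsp-4, stc-1 and hsp-6, of 19973 nuclear protein-coding genes in the annotation. They were chosen by family name with the peak lists already known. The values selected on were the peak summits from 1000 bp upstream to 200 bp downstream of each gene's 5′ end, here called the promoter window, and the highest signal in that window. Those values are therefore given as a description, without a test.

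The data came from chromatin immunoprecipitation and sequencing (ChIP-seq) of whole young adult worms of strain OP765, in 1 group of 2 biological replicates. The strain carries the transgene wgIs765, an integrated copy of aptf-3 fused to TY1, EGFP and 3xFLAG together with unc-119(+), in an unc-119(tm4063) background. Worms were synchronised by starving hatched larvae after bleaching and were collected at 64 h, and sonicated fragments of 200 to 800 bp were precipitated with an antibody against GFP. All tissues were pooled, a single transgenic strain was used, and no second condition, untagged strain or heat shock was compared, so a peak here is not shown to be particular to APTF-3.

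The files were peak lists, and read depth is unknown. The series list of thresholded peaks held 785 peaks, the conservative series list 675, that of replicate 1 178 and that of replicate 2 241. The matching ranked lists, which keep weak candidates too, held 99784, 99255, 85218 and 72073 peaks. Signal is the authors' value per peak in units that are not defined in the sources used here, and levels were ranked only within a list. Where replicates are set side by side, as a mean, a ratio or a distance, their lists are assumed to share a scale, which was not tested. The irreproducible discovery rate (IDR) gives how repeatable a peak is between lists, and every thresholded peak had an IDR of 0.01 or less, which is 2 or more as −log10. A passing IDR in the series list does not by itself mean like strength in the 2 replicates, as the upstream hsp-1 summit below shows. The series lists are made from the same 2 replicates, so replicate values beside them are not a separate experiment.

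Hsp70 proteins are ATP-driven chaperones that hold exposed hydrophobic stretches of unfolded proteins and release them after nucleotide exchange. J-domain proteins bring them substrates and start ATP hydrolysis, and nucleotide exchange factors reset them. Different genes supply the cytosol, the endoplasmic reticulum (ER) and the mitochondria. Heat-inducible members are known targets of HSF-1, which binds heat shock elements, runs of alternating GAA and TTC units. APTF-3 belongs to the AP-2 family, whose mammalian members bind the palindrome GCCNNNGGC.

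The sequences at the family's 5 series-list promoter-window summits were read for heat shock element matches, whose link to the peaks was not tested. The first is the shared promoter of F44E5.4 and F44E5.5, shown over the whole replicate 2 peak, chrII:11759338-11759627 of ce11, on the plus strand, toward F44E5.5. Its 82 capitals are the bases in heat shock element matches, defined as 3 alternating GAA and TTC units spaced by 2 bases.
F44E5.4 and F44E5.5: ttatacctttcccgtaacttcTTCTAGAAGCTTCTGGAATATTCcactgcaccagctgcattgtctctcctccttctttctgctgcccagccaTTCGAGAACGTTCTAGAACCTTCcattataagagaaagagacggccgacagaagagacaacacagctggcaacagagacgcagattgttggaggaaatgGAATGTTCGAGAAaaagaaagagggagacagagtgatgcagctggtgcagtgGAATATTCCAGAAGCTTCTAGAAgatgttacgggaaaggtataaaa
For the other summits, 101 bases centred on the summit are shown on the strand of the gene. These are chrIII:8447074-8447174 for hsp-110 on the minus strand, chrX:6092103-6092203 for hsp-3 on the minus strand, and chrIV:17278458-17278558 and chrIV:17279021-17279121 for hsp-1 on the plus strand. They cover less sequence than the first, and capitals again mark heat shock element matches.
hsp-110: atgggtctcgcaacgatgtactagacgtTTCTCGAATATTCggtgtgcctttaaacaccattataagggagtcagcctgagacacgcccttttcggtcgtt
hsp-3: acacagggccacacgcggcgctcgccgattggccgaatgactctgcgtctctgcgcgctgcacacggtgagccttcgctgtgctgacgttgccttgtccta
hsp-1 upstream summit: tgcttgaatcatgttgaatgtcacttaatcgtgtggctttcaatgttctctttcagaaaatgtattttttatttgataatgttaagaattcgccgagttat
hsp-1 coding summit: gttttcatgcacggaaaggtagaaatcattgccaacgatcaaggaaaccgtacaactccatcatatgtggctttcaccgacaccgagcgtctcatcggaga
Among these 5 sequences, capitals fall in the F44E5.4 and F44E5.5 promoter and in hsp-110, where they number 13 bases. The sequences at hsp-3 and hsp-1 have none within 50 bp of the summit. The first stretch has 290 bases and the others 101, so their numbers of capitals cannot be compared. The outer clusters of the first, 99 bp or more from its summit, would fall outside 101 bases.

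Of the 10 genes, 5 had a series-list summit in their promoter window, namely F44E5.4, F44E5.5, hsp-1, hsp-110 and hsp-3. Over all protein-coding genes the share was 1.49%, or 298 genes. By role, the windows with a summit were 2 of 3 heat-inducible cytosolic genes, 2 of 2 constitutive cytosolic genes, 1 of 3 ER genes and 0 of 1 mitochondrial gene. F11F1.1, a little described member, had none. The conservative list gave 4 of 10 (all genes 1.38%), without hsp-1. The list of replicate 1 gave 2 of 10, both from 1 summit (all genes 0.416%), and that of replicate 2 gave 3 of 10 (all genes 0.486%). Because F44E5.4 and F44E5.5 share a summit and hsp-1 has 2, the 5 genes of the series list stand for 5 distinct summits but 4 promoter regions. The genes were selected on these values, so nothing is read from the excess over the background.

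In the series ranked list the median of the 10 highest signals was 52.7, with a range of 17.2 to 297.2. F44E5.4 and F44E5.5 each enter this median with their shared peak. No member had a value between 35.5 and 69.8, where the median falls, so it describes no typical member. The median over all protein-coding genes was 20.6, with 95% of genes at or below 51.1 and 99% at or below 73.9. Genes without a ranked summit in the window count as 0 in these values, which lowers them. All 10 genes had a ranked summit in the window, as did 69.8% of all genes, so such a summit is common. In replicate 1 the medians were 23.8 for the family and 11.4 for all genes, and in replicate 2 they were 27.1 and 10.4. The shared peak again entered the family medians for both genes. A ranked summit was present for 66.1% of all genes in replicate 1 and 57.9% in replicate 2.

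**Figure D1:**
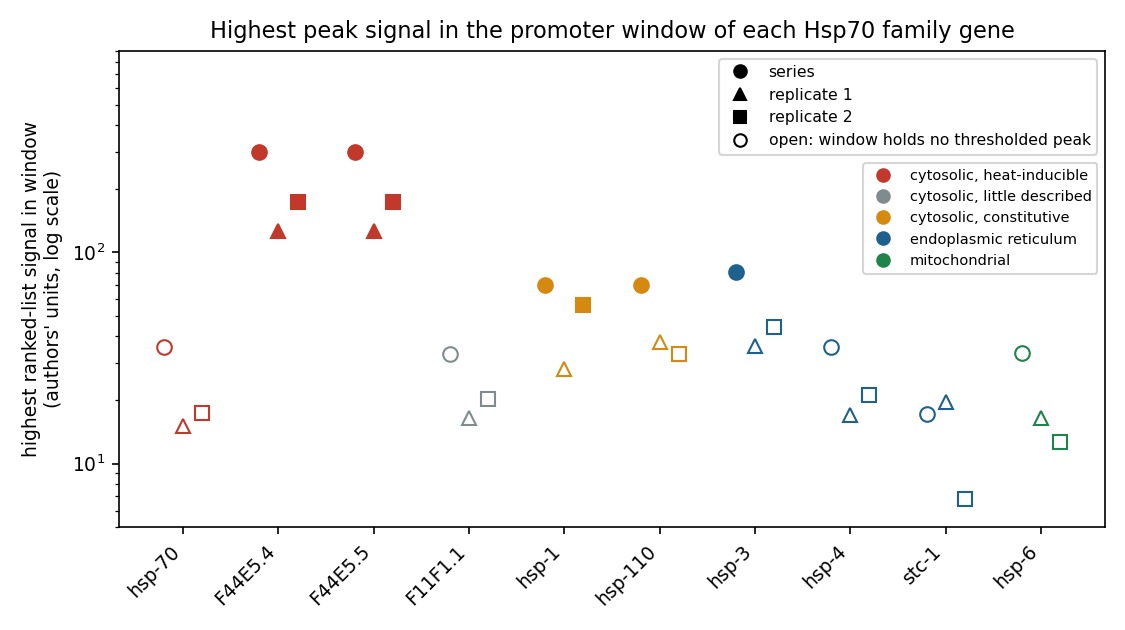
Highest ranked-list signal in each gene's promoter window, in the authors' units on a log axis, for the series list (circles) and the replicates (triangles and squares), coloured by role. Filled symbols mark windows with a thresholded peak in that list. F44E5.4 and F44E5.5 share 1 peak and stand above the other 8 genes in every list, at 297.2 in the series list, 125.7 in replicate 1 and 174.0 in replicate 2.

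F44E5.4 and F44E5.5 had a mean signal of 149.8 ± 34.1 (SD, n = 2), with the lower replicate at 125.7, above every value of the other genes. The highest signal in a window need not come from the same summit in both replicates, and at hsp-1, F11F1.1, hsp-6 and stc-1 it did not. Next were hsp-1 at 42.3 ± 20.1, hsp-3 at 40.2 ± 6.05 and hsp-110 at 35.4 ± 3.32 (SD, n = 2), whose order is not fixed, since the series ranked list puts hsp-3 first of the 3. Their lowest replicate value was 28.1, above the highest value among the remaining genes, 21.1. Below them came hsp-4 at 19.03 ± 2.95, F11F1.1 at 18.3 ± 2.63, hsp-70 at 16.3 ± 1.68, hsp-6 at 14.6 ± 2.78 and stc-1 at 13.2 ± 9.01 (SD, n = 2). Neighbours in that last run overlapped in their replicate values.

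**Figure D2:**
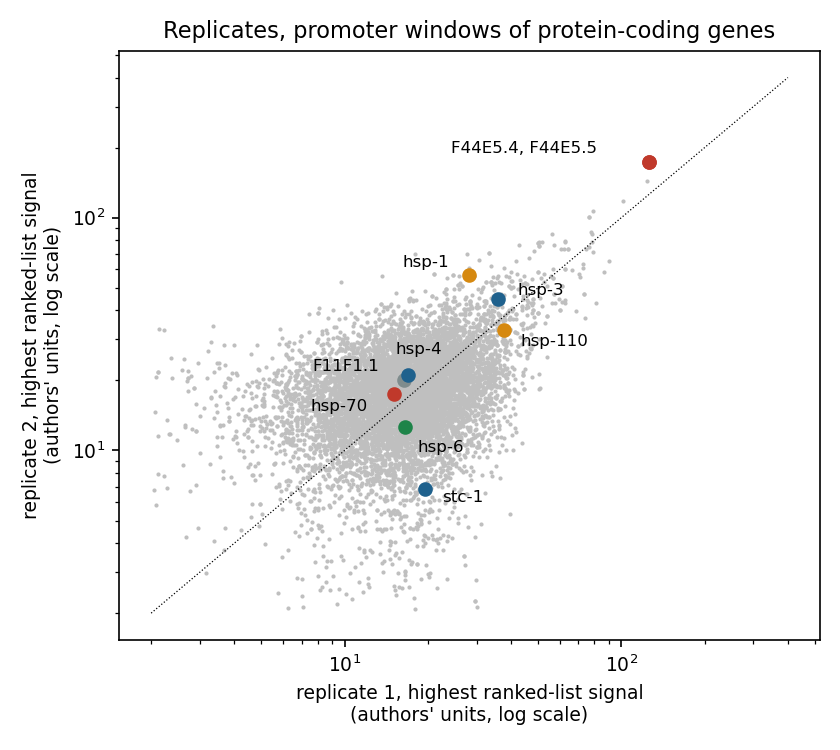
Highest signal in the promoter window in replicate 1 (x axis) against replicate 2 (y axis), both in the authors' units on log axes, for 9386 protein-coding genes with a ranked summit in both replicates (grey) and for the Hsp70 family (coloured). F44E5.4 and F44E5.5 are the highest point in both, at 125.7 and 174.0, and stc-1, at 19.6 and 6.81, differs most in the opposite direction to hsp-1, at 28.1 and 56.5.

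F44E5.4 (WBGene00009691) and F44E5.5 (WBGene00009692) encode heat-inducible cytosolic Hsp70 proteins and are transcribed away from each other on chromosome II of ce11. F44E5.4 spans 11757107 to 11759311 on the minus strand and F44E5.5 spans 11759662 to 11761861 on the plus strand, leaving 350 bp between them. Their shared series-list peak covers 11759410 to 11759495, only 86 bp against a list median of 296 bp. The summit at 11759483 lies 172 bp upstream of F44E5.4 and 179 bp upstream of F44E5.5, 3.5 bp from the middle of the intergenic stretch. One summit cannot be assigned to either gene.

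The signal of that peak was 297.2, ranking 3 of 785 peaks in the series list and 3 of 675 in the conservative list. In replicate 1 it was 125.7, ranking 4 of 178, with the summit 11 bp away, and in replicate 2 it was 174.0, ranking 2 of 241. In the ranked lists the peak was 8 of 99784 in the series, 12 of 85218 in replicate 1 and 4 of 72073 in replicate 2. The highest signal was 1525.8 in the series ranked list but 322.3 among its thresholded peaks, so stronger peaks lie elsewhere. The −log10 IDR of the shared peak was 4.64 in the series ranked list, 4.51 in the conservative one, 3.72 in replicate 1 and 4.68 in replicate 2. Of all protein-coding genes, F44E5.4 and F44E5.5 had the highest promoter-window signal in the series and in each replicate. The ratio of replicate 2 to replicate 1 was 1.38, against a median of 1.09 over the 701 series-list peaks matched in both replicates.

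**Figure D3:**
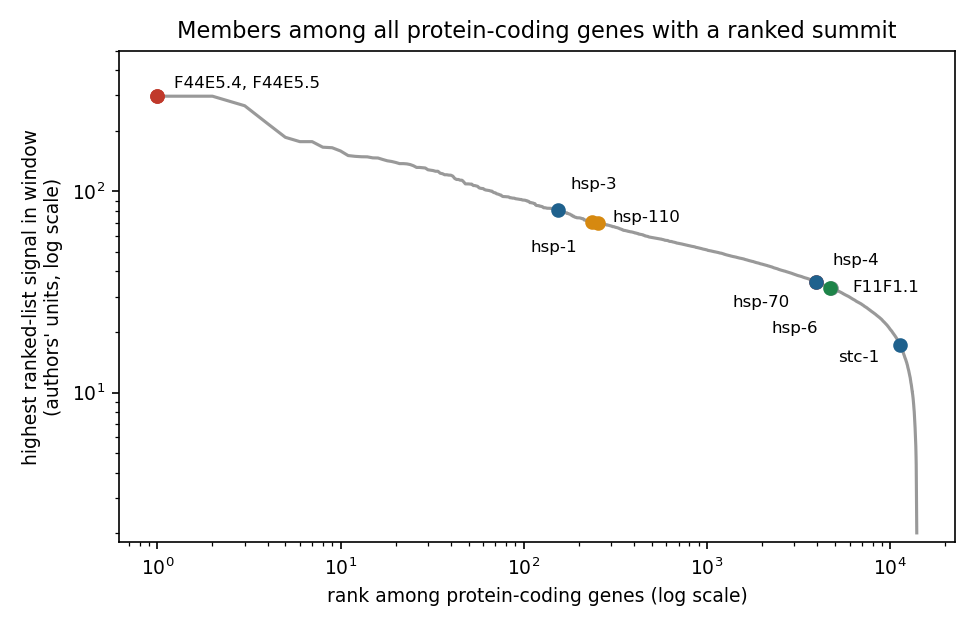
Highest promoter-window signal of protein-coding genes in the series ranked list, in the authors' units on a log axis, against the rank of the gene, on a log axis. F44E5.4 and F44E5.5 hold the top of the curve at 297.2, hsp-3 is at rank 154, hsp-110 at 236 and hsp-1 at 253, and the other 5 members lie between ranks 3925 and 11330.

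The coding sequences of the pair, 1935 bp each, are identical at every base, and 97.6% of the 50-base words in each recur elsewhere in the genome. Read length and the handling of reads that map to several places were not given in the sources used here. No ranked summit lay inside either gene, against 1 to 7 inside each of the other 8. In the promoter window of each, 73.9% of the words recurred. That window reaches 1000 bp upstream, past the 350 bp between the genes into the other gene, and 200 bp into its own gene. The share therefore does not describe the sequence between the genes alone. Around the summit 0 of 152 words recurred, and none of the 86 bp was soft-masked. How the repeated sequence shaped the short, 86 bp peak was not tested.

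Parts of the promoter sequence recur on its opposite strand. The longest stretch shared by the intergenic sequence and its reverse complement is 44 bp. In alignment 67.7% of the 350 bp matches its reverse complement, a share for which no baseline is given. The intergenic sequence holds 10 heat shock element matches in 4 clusters, at 11759359 to 11759381, 11759431 to 11759453, 11759530 to 11759542 and 11759582 to 11759604. The clusters have 5, 5, 3 and 5 units. The second, 30 to 52 bp to the left of the summit, lies inside the peak, and the third lies 47 to 59 bp to its right. The outer clusters begin 102 bp to the left and 99 bp to the right.

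**Figure D4:**
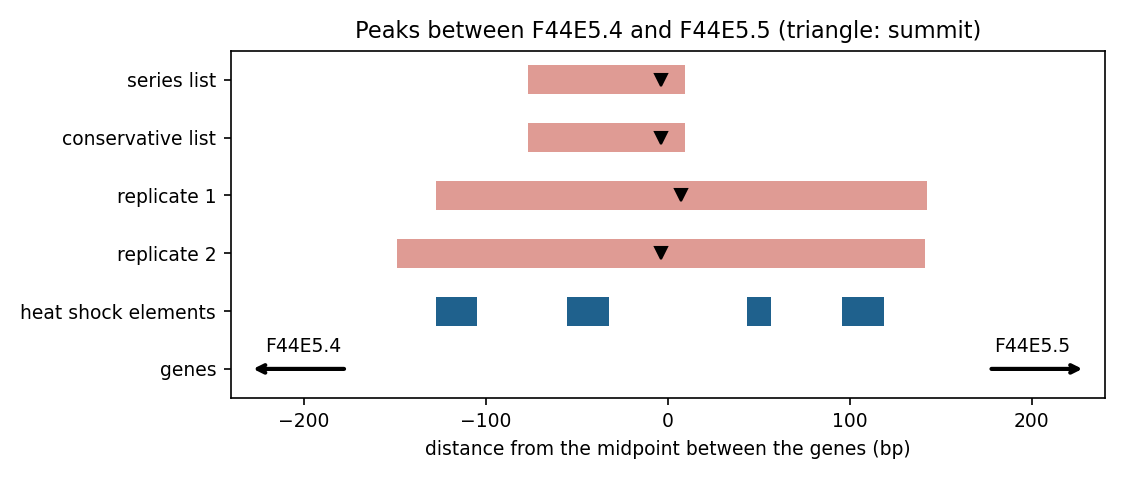
The region between F44E5.4 and F44E5.5, by distance in bp from the midpoint between the genes (x axis), with the extent of the thresholded peak in each list (bars), its summit (triangles) and the 4 heat shock element clusters. The 86 bp peak of the series list holds 1 of the clusters, and the clusters flank the summit on both sides.

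The third heat-inducible gene, hsp-70 (WBGene00002026), did not show such a peak. It spans 9320325 to 9322519 on the minus strand of chromosome I, inside an intron of uggt-2, which runs the opposite way. Its highest ranked signal was 35.5, 289 bp upstream, with 15.1 at 317 bp in replicate 1 and 17.4 at 360 bp in replicate 2. In the series ranked list 80.3% of genes had a lower value, counting those without a ranked summit as 0. The −log10 IDR of the summit 289 bp upstream was 0.314. The nearest series-list summit was 14816 bp from its 5′ end. Its coding sequence is 80.3% identical to that of F44E5.4, and none of its 50-base words recur. A heat shock element match lies 73 bp upstream of its 5′ end.

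The constitutive cytosolic genes both had series-list summits, which ranked 545 and 594 of 785 by signal at hsp-1 and 529 at hsp-110. hsp-1 (WBGene00002005) encodes the constitutive cytosolic Hsc70 and spans 17278959 to 17281330 on the plus strand of chromosome IV. One summit lies 451 bp upstream, in a peak from 17278360 to 17278655 with a signal of 68.1. It is 95 bp from the 5′ end of the noncoding RNA gene F26D10.23, which spans 17278413 to 17278502, inside that peak. This upstream summit therefore cannot be assigned to a single gene. The other lies 112 bp downstream of the hsp-1 5′ end, in its coding sequence, in a peak from 17278923 to 17279218 with a signal of 69.8. This coding summit is also 975 bp upstream of the small nucleolar RNA gene F26D10.24, within that gene's window, so it is not tied to hsp-1 alone.

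The 2 replicates differed at the upstream hsp-1 summit. Its signal was 56.5 in replicate 2 and 11.8 in replicate 1, where the nearest summit was 84 bp away. The ratio of 4.8 was higher than that of 99.4% of the 701 matched peaks, of which 90% lay between 0.589 and 2.13. At the coding summit the signals were 28.1 in replicate 1 and 39.2 in replicate 2, a ratio of 1.4. Both summits were in the thresholded list of replicate 2, and neither was in that of replicate 1 or in the conservative list. The −log10 IDR in the conservative ranked list was 0.392 upstream and 1.92 at the coding summit. In the series ranked list these were 2.14 and 2.06. Of the words around the coding summit, 9.87% recur in the genome.

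hsp-1 also had 2 series-list peaks farther inside the gene. One had a signal of 60.5, its summit 1278 bp downstream and 191 bp from the 5′ end of F26D10.24, a small nucleolar RNA gene inside hsp-1. The other, at 1484 bp, had a signal of 4.76 and no matched summit in either replicate. No other member had a series-list summit inside its gene.

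hsp-110 (WBGene00016250) encodes a cytosolic Hsp110, a relative of Hsp70 that acts as its nucleotide exchange factor, and spans 8443910 to 8446909 on the minus strand of chromosome III. Its peak covers 8446976 to 8447271 with a signal of 70.4, and its summit lies 215 bp upstream. The replicates gave 37.7 and 33.0, a ratio of 0.88, lower than the median of 1.09. The summit is also 229 bp upstream of rpn-3, which encodes a proteasome subunit and runs the opposite way, and 29 bp upstream of the noncoding RNA gene C30C11.14, so it too cannot be assigned to a single gene. Repeats annotated by soft-masking cover 49.0% of the peak. The peak was in the conservative list but in neither replicate's thresholded list.

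The ER members differed from each other. hsp-3 (WBGene00002007) and hsp-4 (WBGene00002008) both encode BiP, the Hsp70 of the ER lumen, and hsp-4 is the copy induced by the unfolded protein response. Their coding sequences are 77.3% identical. The hsp-3 gene spans 6089028 to 6092124 on the minus strand of chromosome X, and its peak covers 6092005 to 6092300 with a signal of 80.7. It ranked 324 of 785. The summit lies 29 bp upstream of the 5′ end, and no other gene's window holds it. The replicates gave 36.0 and 44.5, with summits 41 and 25 bp upstream. The 201 bp around the summit had a GC content of 63.2%, against 38.8 to 49.3% at the other 4 family summits, and no base of the peak was soft-masked.

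hsp-4 had no series-list summit in its window. It spans 7350112 to 7352645 on the minus strand of chromosome II, and its strongest ranked summit, 575 bp upstream, had a signal of 35.5, with 16.9 in replicate 1 and 21.1 in replicate 2. That peak was 71.3% soft-masked. A second summit 63 bp upstream had 22.1. stc-1 (WBGene00006059), which encodes an ATPase-domain protein of the Hsp70 family, spans 8563709 to 8566139 on the minus strand of chromosome II and had the lowest value of the 10 in the series ranked list. Its summit 132 bp upstream had a signal of 17.2 in the series ranked list. The summits in the window were 221 bp upstream with 19.6 in replicate 1 and 91 bp upstream with 6.81 in replicate 2. The conservative ranked list also held a stronger summit, 638 bp upstream with 24.7, in the coding sequence of F54C9.3. The 5′ end of stc-1 lies 28051 bp from the 5′ end of aptf-3, the tagged gene, on the same chromosome.

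The mitochondrial Hsp70 gene hsp-6 (WBGene00002010) spans 4824124 to 4826760 on the minus strand of chromosome V. Its strongest ranked summit lay 152 bp downstream, in the coding sequence, with a signal of 33.3 in the series list. The only summit in the window was 98 bp downstream with 16.5 in replicate 1, and 284 bp upstream, in the noncoding RNA gene C37H5.16, with 12.6 in replicate 2. The summit 53 bp upstream had only 3.77. The nearest series-list summit was 2958 bp away. F11F1.1 (WBGene00008714) spans 13395562 to 13400604 on the plus strand of chromosome III. Its strongest summit, at 33.0, lies 962 bp upstream in the coding sequence of the neighbouring gene qdpr-1, and the next, at 20.5, lies 404 bp upstream. In replicate 1 the highest was 16.5 at 963 bp upstream, and in replicate 2 it was 20.2 at 409 bp upstream.

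**Figure D5:**
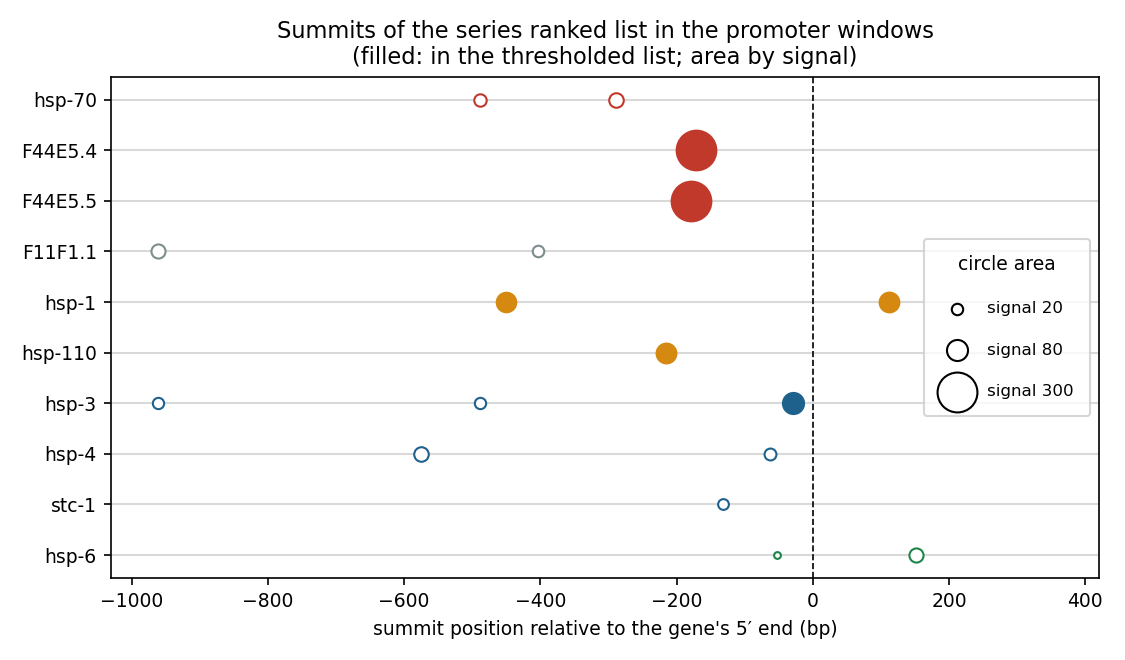
Position of every ranked-list summit of the series in each gene's promoter window, in bp from the gene's 5′ end with upstream negative, for the 10 Hsp70 family genes. Symbol area follows the signal, and filled symbols mark summits in the series thresholded list, which lie from 451 bp upstream (hsp-1) to 112 bp downstream (hsp-1).

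At the threshold, the lowest series-list summit in a family promoter window had a signal of 68.1, and the lowest −log10 IDR there was 2.06. Among the windows without a series-list summit, the highest signal was 35.5, with a −log10 IDR of 0.676. Outside the windows signals in between did occur, such as the hsp-1 summit at 60.5 and ranked summits of 59.6 inside hsp-3, 58.2 inside hsp-110 and 50.7 inside stc-1.

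Matches to 3 motifs were counted on both strands of the promoter windows. Heat shock elements occurred in 6 of 10 windows and in 7.68% of all protein-coding windows. The counts were 10 for F44E5.4 and F44E5.5, which share them, 2 for hsp-1 and hsp-110, and 1 for hsp-6 and hsp-70. Of all genes, 27 had at least 10 matches. The heat-inducible hsp-70 and the mitochondrial hsp-6 thus carry a match without a series-list summit, and hsp-3 has a summit without one. Within 100 bp of the summit, 2 of 5 family summits held a match, against 36 of 785 series-list summits (4.59%) and 1326 of 99784 ranked summits (1.33%).

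The AP-2 consensus GCCNNNGGC was found in 0 of 10 family windows and 5.31% of all windows, and within 100 bp of 0 of 5 family summits, 4.08% of series-list summits and 1.56% of ranked summits. The core of the unfolded protein response element, TGACGTGG, was found in the stc-1 window alone, 632 bp upstream, against 3.56% of all windows. A match is a description of the sequence, and the absence of these letters says nothing of whether the factor binds.

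Genes that work with Hsp70 were compared from a list of 32 cochaperones and stress regulators. A series-list summit lay in the window of 2, or 6.25%, beside 1.49% of all genes. The median highest signal was 21.4, counting genes without a ranked summit as 0. dnj-13, a J-domain cochaperone, had a signal of 113.6 with a summit 228 bp upstream, in a peak at 11545325 to 11545620 on chromosome II. That summit also lies in an intron of the gene dhgd-1 and in an exon of the noncoding RNA gene F54D5.22. bag-1, a nucleotide exchange factor, had 120.4 at 176 bp upstream, in a peak at 6564479 to 6564774 on chromosome I. The 4 regulators of the heat shock response had 0, with hsf-1 at 22.7, as did the 4 ER stress regulators, the 4 mitochondrial stress regulators and the 7 genes of the Hsp90 group.

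The genes with the most similar highest window signals in the series, replicate 1 and replicate 2 ranked lists were found among 9161 genes. Distance was taken on the log10 scale over those 3 values. For the F44E5.4 and F44E5.5 summit they were Y32H12A.8, with 266.4, 123.9 and 143.6 at a distance of 0.0961, mrp-4, an ABC transporter gene, at 0.237, and T10C6.7 at 0.355. For hsp-110 they were W01G7.4, set-16 and drr-2, all within 0.0063. For hsp-1 they were K12H4.5 at 0.0529 and cdd-2 and oef-1, which had equal values, at 0.0609. The hsp-1 values joined the coding summit in the series and replicate 1 with the upstream summit in replicate 2. For hsp-3 they were gst-7, a glutathione S-transferase gene, at 0.0092, and hsr-9 and rps-19, which had equal values, at 0.0194.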

How the data were processed

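ChIP-seq peaks of tagged APTF-3 were analysed in 2 biological replicates of 1 group. The deposited lists give a signal per peak, on a scale the labels do not define, and the ranked lists give a deposited −log10 IDR. The aligner and peak caller were not given in the sources used here. Tested on the files, every thresholded peak passed an IDR of 0.01 in its ranked list. In the series-level ranked lists 16 columns of values not tied to a replicate were not used, and no control signal was used.

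Summits were assigned to windows of 1000 bp upstream to 200 bp downstream of the 5′ end of 19973 nuclear protein-coding genes, by identifier, with coordinates of ce11 (1-based) and the Ensembl release 115 annotation. Replicate signals at a peak came from the nearest summit within 100 bp. Sequences were read from the RefSeq FASTA of the same assembly, and repeated words were 50-base words found elsewhere on either strand. Python 3.11.15, NumPy 2.4.6, pandas 2.3.3, Biopython 1.88 and matplotlib 3.10.9 were used, and assignment and motif search were tested on simulated data.

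The members, lists and rules were chosen with earlier results of these data known, and with 1 group no test was made. Named genes were the 10 members, partner genes with a series-list summit and genes sharing a member's summit. For each member with a series-list summit, the 3 genes nearest in highest window signal were also named. Alternatives were the conservative list, each replicate alone, the upper 50% of peaks, an IDR threshold, other windows, any transcript's 5′ end and peak overlap. Read depth is unknown, so no interval that needs it is given; SDs over 2 replicates are imprecise.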

Additional observations from a re-analysis of the deposited data

How the results depend on the processing

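The count of 5 genes with a series-list summit was 4 in the conservative list and 5 with an IDR of 0.01 or less, with windows of 500 to 100 bp or 2000 to 500 bp, with any transcript's 5′ end and with peak overlap. With the upper 50% of peaks by signal it was 3. With a single replicate it was 2 to 3, with F44E5.4 and F44E5.5 in both and hsp-1 in replicate 2 alone. Partner genes numbered 2 in every setting but any transcript's 5′ end, where hsp-90 made 3. The genes changed with a single replicate, to dnj-13 and dnj-28 in replicate 1 and bag-1 and dnj-28 in replicate 2. The AP-2 consensus was in 1 family window, that of hsp-110, with 2000 to 500 bp, and TGACGTGG in 0 with 500 to 100 bp. In the narrow window the highest signal fell to 3.77 at hsp-6, 20.5 at F11F1.1 and 22.1 at hsp-4. The share of genes with a lower signal than F44E5.4 and F44E5.5 went from 99.99% to 99.985% with 2000 to 500 bp or any transcript's 5′ end. Another gene then matched or exceeded the pair. With 2 replicates and unknown depth, the order among hsp-1, hsp-3 and hsp-110 and that among the 5 lower genes are not resolved. No paired analysis was possible because there is only 1 group.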

Other observations

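Outside the family, 2 chaperone genes had peaks that the window rule on the series list misses. dnj-28, a J-domain cochaperone gene, had a thresholded peak 147 bp upstream in both replicates, with signals of 62.5 and 60.4, but no overlapping peak in the series ranked list. Such peaks were few, 3 of 178 in replicate 1 and 9 of 241 in replicate 2. hsp-90 had a series-list summit 834 bp downstream of its 5′ end, in an intron, with a signal of 91.3 in the series list and 53.6 in replicate 2.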
